A study of Zea mays with 6 samples.

Results

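ramosa3 (ra3) is 1 gene of the 46272 gene IDs counted here, in RNA from developing maize ears. Its row was chosen by ID: Zm00001d022193, the ra3 gene model in version 4 of the B73 genome annotation. The gene was picked with its difference between the genotypes already known, so its levels are given below as a description, with no test. The RefSeq gene table at hand lists ra3 but matched 0 of the 44146 Zm00001d IDs, so the link between name and ID was not checked against that table. For the same reason tpp4 and the other genes of the pathway have no values here, and the tissue was not checked against its marker genes.

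RA3 is a trehalose-6-phosphate phosphatase. Plants make trehalose-6-phosphate, a signal of sucrose status, from UDP-glucose and glucose-6-phosphate with a trehalose-6-phosphate synthase, and phosphatases such as RA3 convert it to trehalose. In young maize inflorescences ra3 is expressed in narrow domains at the base of axillary meristems, and ears of ra3 mutants form extra branches because spikelet-pair meristems lose determinacy. The tpp4 gene encodes another phosphatase of the same family.

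The libraries came from ears 2 to 3 mm long. Wild-type (WT) plants were of the inbred line B73. The other plants were ra3;tpp4 double mutants, which carry mutations in both phosphatase genes. Each genotype has 3 libraries, described in the series as biological replicates, from field-grown plants. The sources used here do not give the mutant alleles, the genetic background of the mutants or the number of ears in a library. Library totals, summed over gene IDs, were 25815984 to 26752609 in WT and 19291332 to 25254164 in ra3;tpp4. In pairs of libraries of the same genotype, chi-square per degree of freedom over tested IDs was 5.31 to 16.3, so no pair agreed within sampling noise and each library was kept as a separate sample.

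In WT ears ra3 was well above a floor of 3 counts in every library. That floor is a set value and not a measured background. ra3 had 2136 counts in WT replicate 1, 3210 in replicate 2 and 3545 in replicate 3. Scaled to CPM (counts in 1000000 counts over all gene IDs), these were 82.6, 120.0 and 137. Replicate 1 stood lowest and the other two lay closer together. The mean was 113 ± 28.0 CPM (SD, n = 3).

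The ra3;tpp4 ears still held ra3 reads. There were 150 counts in replicate 1, 109 in replicate 2 and 170 in replicate 3, or 6.23, 4.32 and 8.81 CPM. The mean was 6.45 ± 2.26 CPM (SD, n = 3). Exact 95% Poisson intervals, which cover counting error only, were 5.28 to 7.32 CPM, 3.54 to 5.21 CPM and 7.54 to 10.2 CPM. None of these 3 intervals overlapped another, so the replicates spread beyond counting error, as did every pair of libraries of the same genotype over the tested IDs. All 3 levels lay above the floor of 3 counts per library, which stood at 0.119 to 0.156 CPM. As a set value, that floor does not show how many reads background would give. Counts per gene do not show where in the gene the reads lie, so full-length, truncated and misassigned transcripts cannot be told apart. The sources used here do not give the strand setting of the counting, and reads from an antisense or overlapping transcript would be part of these values.

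**Figure D1:**
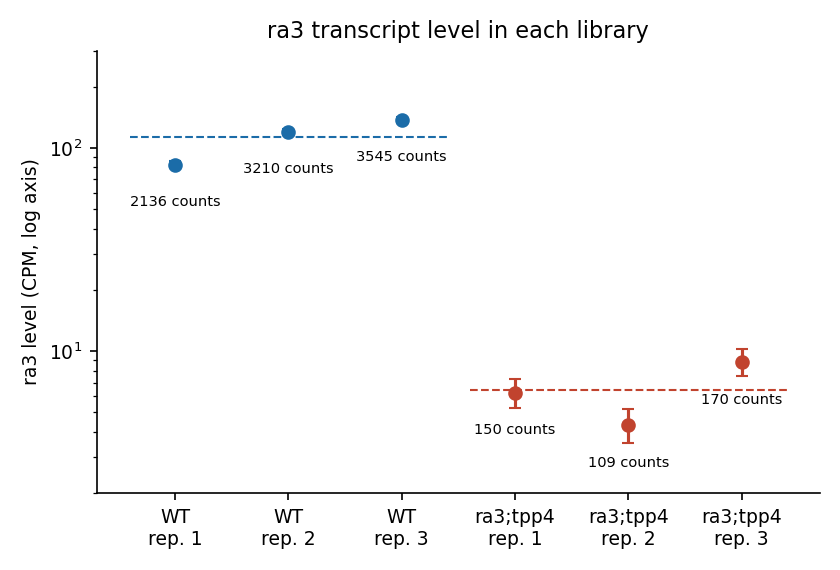
ra3 level in CPM (log axis) in each of the 6 libraries, with exact 95% Poisson intervals for counting error as bars and the mean of each genotype as a dashed line. The 3 WT libraries sit between 82.6 and 137 CPM and the 3 ra3;tpp4 libraries between 4.32 and 8.81 CPM.

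The genotypes did not overlap. The lowest WT library held 9.37 times the level of the highest ra3;tpp4 library, and the highest WT library 31.8 times that of the lowest ra3;tpp4 library. Over the 9 pairs of a mutant and a WT library, the mutant level was 3.14% to 10.7% of the WT level. The ratio of the means put the residual level at 5.70% of WT, a 17.6-fold difference. From the summed counts, 429 in ra3;tpp4 and 8891 in WT, the residual was 5.52% with an exact binomial 95% interval of 5.0% to 6.1%. That interval holds counting error only and is narrower than the range over library pairs. Every ra3;tpp4 library also lay below every WT library in 11.4% of the 21127 tested IDs, those that passed a filter on low counts. In bulk tissue, fewer cells that express a gene and less RNA per cell cannot be told apart.

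The libraries also differed by genotype in how many records reached a gene. Alignments that were not unique made up 19.3% to 22.2% of all records in WT, against 15.3%, 12.9% and 11.05% in ra3;tpp4 replicates 1, 2 and 3. Per 1000000 records of any kind, unassigned ones included, ra3 stood at 54.6, 82.6 and 90.0 in WT replicates 1 to 3 and at 4.77, 3.25 and 6.85 in ra3;tpp4 replicates 1 to 3. On that scale the residual was 6.55% of WT, and the genotypes again did not overlap.

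The edgeR fit across all tested IDs gave ra3 a log2 change of -4.13 (SE 0.335), ra3;tpp4 over WT. The median log2 change over all tested IDs was -0.0022, with quartiles of -0.12 and 0.12. An estimate at least 2-fold lower in the mutant was found for 1.74% of tested IDs, at least 4-fold lower for 0.279% and at least 16-fold lower for 0.0189%, or 4 IDs with ra3 among them. The other 3 had a larger negative estimate than ra3 but were scarce, with 14 to 38 counts in each WT library and 0 or 1 in each mutant library. Of these 3, 2 are numbered within 100 of ra3, a range that held 107 other tested IDs and was chosen after the values were seen. The number of IDs at or below the log2 change of ra3, itself included, was 9, 10 and 8 without ra3;tpp4 replicate 1, 2 and 3. It was 69 with no filter on low counts and 1 with a filter at a CPM of at least 1 in 3 libraries.

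Among tested IDs whose mean log2 CPM was 1 or more, no other had an estimate as low as that of ra3, and the next was -3.80. A further 2096 tested IDs were at least as abundant as ra3 in WT by CPM. Of these, 3 were at least 2-fold lower in the mutant, and 2 of the 3 were ENSRNA IDs, which stand for non-coding RNAs in Ensembl annotation. The 250 IDs ranked just above ra3 in WT and the 250 just below had mean WT levels of 105 to 123 CPM, and all 500 were tested. Their log2 changes had a median of 0.0063, quartiles of -0.08 and 0.09, and a range of -0.80 to 1.47. The lowest residual level among them was 56.4% of WT, against 5.70% for ra3.

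**Figure D2:**
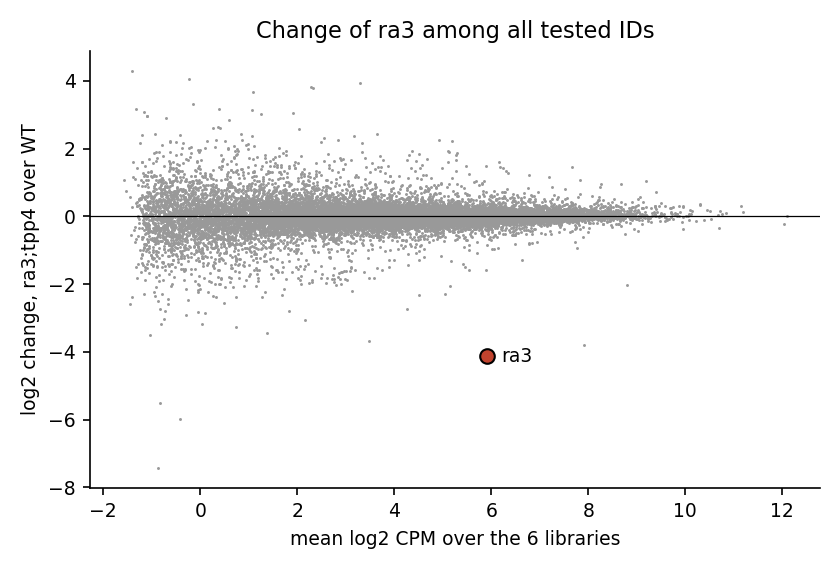
Log2 change (ra3;tpp4 over WT, edgeR estimate) of each of the 21127 tested IDs against its mean log2 CPM over the 6 libraries, with ra3 as the large point. ra3 lies at a log2 change of -4.13, and the 3 IDs below it are at the low end of abundance.

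In the WT ear ra3 ranked 2097th of 28145 IDs with a count, by mean CPM. It was thus in the top 7.45%. These ranks compare counts without division by gene length, because the files give no lengths, so a long gene ranks higher than a short one with as many transcripts. By library the rank was 3209 in WT replicate 1, 1936 in replicate 2 and 1566 in replicate 3. Among Zm00001d IDs alone it was 2095 of 27533. In ra3;tpp4 the gene ranked 15335th of 28198 IDs, with 45.6% of the IDs below it, and by library 15356, 16770 and 14058 in replicates 1, 2 and 3. The shares of IDs with a count below it in ra3;tpp4 replicates 1, 2 and 3 were 39.4%, 36.4% and 43.3%. The residual level in the mutant was thus below the middle of the IDs with a count and not among those with the fewest reads. Its place among IDs that passed the filter on low counts is not given for the mutant.

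**Figure D3:**
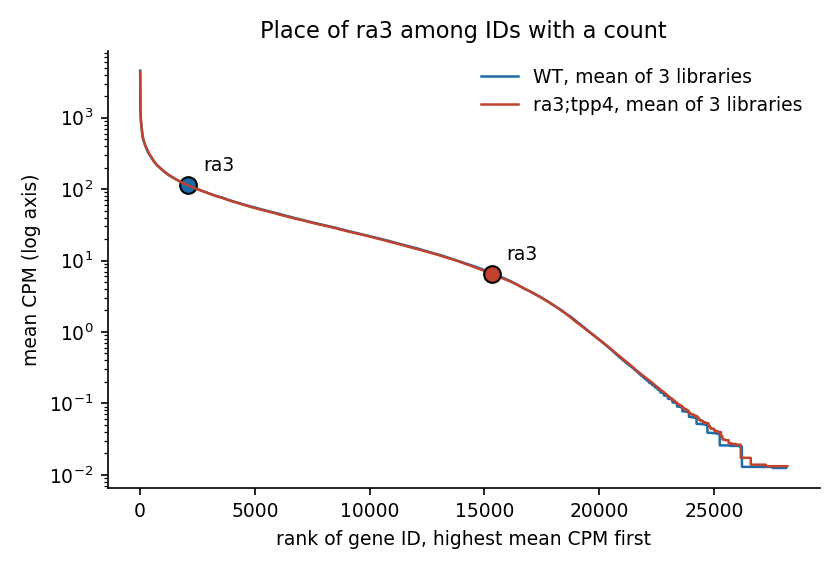
Mean CPM (log axis) of IDs with a count, ordered from the highest, in WT and in ra3;tpp4, with ra3 as a point on each curve. The 2 curves nearly coincide, and ra3 moves along them from rank 2097 in WT to rank 15335 in ra3;tpp4.

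The spread of ra3 among WT replicates was wide for a gene of its abundance. Its coefficient of variation (SD over mean) was 24.7% in WT, where counting error alone gives 1.84%. The 500 IDs ranked beside it had a median of 5.75% (quartiles 3.55% and 8.62%), and 98.8% of them varied less than ra3. Over all tested IDs the median in WT was 9.56%, and 86.3% varied less. The coefficient of ra3 was lowest without WT replicate 1, at 9.52%, and without replicates 2 and 3 it was 35.2% and 26.1%. Each of these rests on 2 libraries, and the 500 IDs were not recomputed in the same way. The highest WT library held 1.66 times the level of the lowest.

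Among the ra3;tpp4 replicates the coefficient of variation was 35.0%, at a level where counting error gives 8.36%. The 500 IDs ranked beside ra3 in the mutant had a median of 15.3% (quartiles 8.76% and 22.2%), and 91.4% of them varied less. The highest mutant library held 2.04 times the level of the lowest. On the log2 scale the SD of ra3 was 0.38 in WT and 0.51 in ra3;tpp4 (n = 3 each), a difference that was not tested.

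**Figure D4:**
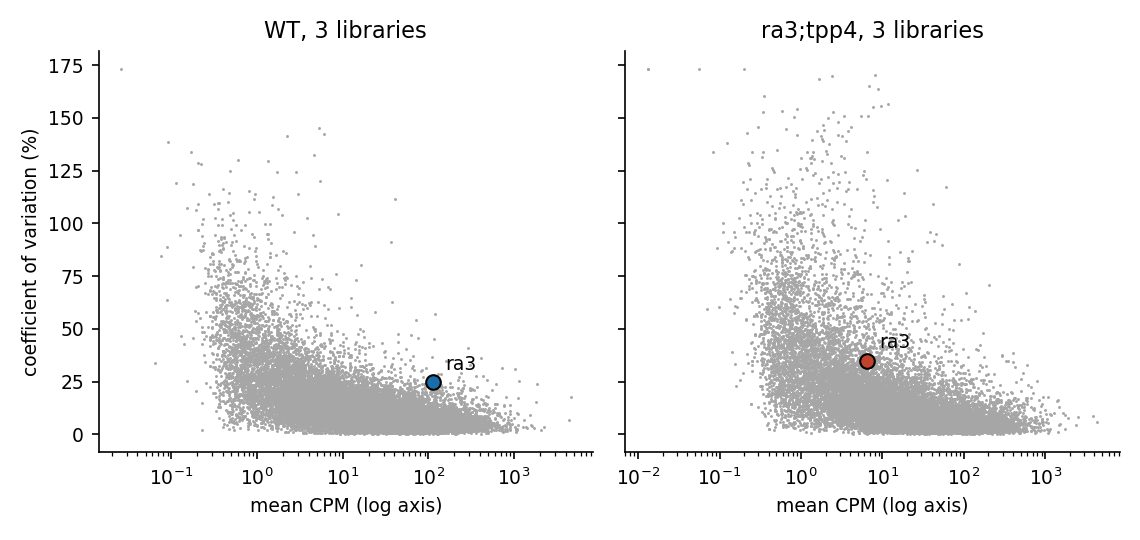
Coefficient of variation (%) among 3 libraries against mean CPM (log axis) for tested IDs, in WT and in ra3;tpp4, with ra3 as the large point. ra3 stands at 24.7% in WT and 35.0% in ra3;tpp4, in both cases towards the upper edge of IDs of like abundance.

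In a principal component analysis of the tested IDs, the first component carried 37.2% of the variance and the next 28.0%. The first placed WT replicates 1 to 3 at 24.1, 22.6 and 30.8, so WT replicate 1 did not stand apart there. It placed ra3;tpp4 replicates 1 to 3 at -14.0, -49.3 and -14.2, so ra3;tpp4 replicate 2 stood apart from the other ra3;tpp4 libraries. The next component placed WT replicates 1 to 3 at 29.3, 0.63 and -0.999. On it, ra3;tpp4 replicates 1 to 3 lay at -26.9, 31.3 and -33.3. WT replicate 1 and ra3;tpp4 replicate 2 were thus the highest of their genotypes on that component. They also held the least ra3, at 82.6 CPM among the WT and 4.32 CPM among the mutants. Of 18469 other IDs at a mean log2 CPM of 1 or more, 1041 (5.64%) had their libraries in the same order as ra3 within both genotypes. That share is for the full order, and the share of IDs lowest in both of these 2 libraries is not given here. Without WT replicate 1 the residual level was 5.02% of WT, and without ra3;tpp4 replicate 2 it was 6.64%. What set WT replicate 1 and ra3;tpp4 replicate 2 apart on the component after the first was not tested. Nor was what set ra3;tpp4 replicate 2 apart on the first.

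Likeness to ra3 was measured over the 6 libraries as the root mean square distance between log2 CPM profiles, each centred on its own mean. The median distance of the 18469 IDs was 2.097, and the distance is small mainly for IDs that are far lower in the mutant. The nearest was ENSRNA049478590, at a distance of 0.589. It held 452, 441 and 468 CPM in WT replicates 1 to 3 and 39.5, 35.2 and 21.2 CPM in ra3;tpp4 replicates 1 to 3. Unlike ra3, this RNA was level among the WT libraries, and it was lowest in ra3;tpp4 replicate 3, where ra3 was highest.

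The next ID was Zm00001d025346, at a distance of 0.641, with 14.7, 18.7 and 28.0 CPM in WT replicates 1 to 3. In the mutant it held 2.41, 0.317 and 2.07 CPM in replicates 1 to 3. Its libraries followed the order of ra3 in WT and shared the lowest mutant library, replicate 2, with it. No function is given to either ID in the sources used here. Of the 20 nearest IDs, 11 were not Zm00001d models but ENSRNA IDs, and the log2 changes of the 20 ran from -3.80 to -1.56. The share of ENSRNA IDs among all ranked IDs is not given here, so the 11 have no background beside them. When likeness was measured by Pearson correlation, which ignores the size of the difference, 1 of these 20 was among the 20 most alike.

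**Figure D5:**
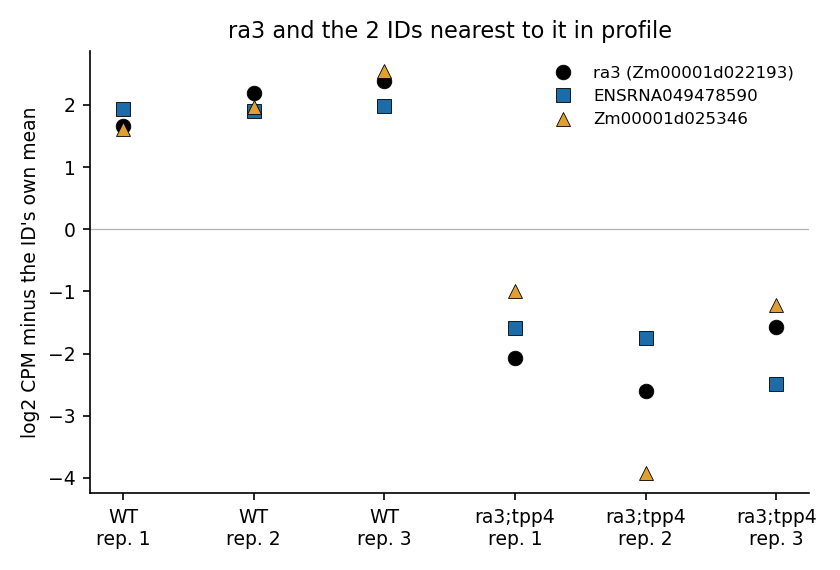
Log2 CPM in each of the 6 libraries, minus the mean of the same ID over those libraries, for ra3 and for the 2 IDs nearest to it in profile. All 3 IDs are high in the 3 WT libraries and low in the 3 ra3;tpp4 libraries. Zm00001d025346 follows the order of ra3 within WT but not within ra3;tpp4, and ENSRNA049478590 follows it within neither.

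Of 19 IDs within 10 numbers of Zm00001d022193, 12 were tested, with mean WT levels of 9.95 to 86.1 CPM and log2 changes between -0.44 and 0.15. Every ra3;tpp4 library lay below every WT library for 4 of the 12, and in 11.4% of all tested IDs. Within 100 numbers, 107 other IDs were tested, with a median log2 change of -0.0032. Of these, 4 were at least 2-fold lower in the mutant, 3 of them at least 4-fold lower, where all tested IDs held 1.74% and 0.279%. They include 2 of the 3 scarce IDs with a lower estimate than ra3, numbered 46 and 73 away, and 1 of the 20 IDs nearest in profile, numbered 82 away with a log2 change of -2.06. This wider range was chosen after the values were seen. Whether neighbouring numbers are neighbouring genes was not checked here.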

How the data were processed

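Messenger RNA of developing ears was sequenced in 6 libraries. The authors deposited unscaled counts for each gene ID, made with Trimmomatic 0.36, HISAT2 2.1.0 and HTSeq on B73 RefGen_v4, per the submitters' processing notes. The sources used here give no annotation release, strand setting or parameters. The 5 HTSeq summary lines, for records without a gene, 22.3% to 34.5% of a library's records, stayed out of library sizes. Whether reads that fit near-identical genes went to those lines depends on settings that were not at hand.

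CPM was computed over all gene IDs, without scaling factors. Log2 changes came from an edgeR 4.0.16 quasi-likelihood fit of genotype (filterByExpr, TMM scaling, robust) in R 4.3.3, and SE from the log2 change and its F statistic. Likeness used log2 CPM with a prior count of 2 and IDs whose mean log2 CPM was 1 or more, and the 2 nearest are named. ra3, and the quantities described, were chosen with earlier results of these data known. The planned lists by symbol had no matching IDs. Alternatives were DESeq2 1.42.0, limma-voom (limma 3.58.1), other scalings, filters and denominators, a replicate block and leaving out libraries. Python 3.11.15 was used for the rest.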

Additional observations from a re-analysis of the deposited data

How the results depend on the processing

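The log2 change of ra3, -4.13, lay between -4.18 and -4.11 with other scalings, filters, DESeq2, limma-voom and without ENSRNA IDs, and between -4.41 and -3.89 when each library was left out. The residual level, 5.70% of WT, was 5.20% to 6.55% with other scalings, denominators and medians, and 4.66% to 6.64% when each library was left out. The percentile of ra3 in WT, 92.5, was 90.1 among IDs that passed the filter, and 91.0 to 93.6 when each WT library was left out. Leaving out libraries gave a coefficient of variation of 9.52% to 35.2% in WT and of 24.2% to 48.4% in ra3;tpp4. The number of IDs at or below the log2 change of ra3, 4, was 69 with no filter and 1 with a filter at a CPM of at least 1, settings that add or remove scarce IDs, and 4 to 10 when each library was left out, where the cause was not tested. Of the 20 most alike IDs, 1 was shared under Pearson correlation and 19 with a prior count of 0.5.

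Replicate numbers were not treated as pairs. Deviations from the genotype means correlated at -0.18, -0.12 and 0.15 between libraries with the same number, and the best partner had the same number for 2 of 6 libraries. In a fit with a replicate block the log2 change of ra3 was -4.12, and 4 IDs were at or below it. With 3 libraries per genotype the spread itself is known only roughly, and counting error limits single mutant libraries, at 109 to 170 counts, more than WT ones.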
